A study of Mus musculus with 8 samples.

Results

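Of the 45101 probe sets in the table, 6 were followed, 5 for the gene Mef2c and 1 for Igf1r. They were taken by identifier from a list that pairs them with these genes, namely 1421027_A_AT, 1421028_A_AT, 1445420_AT, 1451506_AT and 1451507_AT for Mef2c, and 1452108_AT for Igf1r. The pairing was taken as given and not checked against an annotation of the array. Both genes are known from other work as candidate targets of the microRNA miR-223. The cells were mouse bone marrow progenitors grown in culture in a medium made for protein labelling (SILAC-IMDM), from wild-type mice and from mice null for miR-223. Day 4 cells had 4 days of granulocyte colony-stimulating factor (G-CSF) and stem cell factor (SCF), and the progenitors that carried c-Kit but not Gr-1 were sorted. Day 8 cells had 6 days of both factors and a further 42 hours in which SCF was left out, and the mature neutrophils that carried Gr-1 but not c-Kit were sorted. The design had 4 groups (wild type or null, at day 4 or day 8), with 2 arrays of total RNA in each and 8 in total. The labels give no strain, age or construction of the null allele, nor whether both arrays of a group stand for different animals or cultures. The p-values therefore measure the spread between arrays, which may be technical.

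A microRNA guides a silencing complex to messenger RNAs, mostly through pairing of its seed, the bases near its 5' end, to sites in the 3' untranslated region. The messenger RNA is then degraded or translated less, so loss of a microRNA can raise its targets. miR-223 is made mainly in myeloid cells and rises as granulocytes form. Mef2c encodes a transcription factor of the MADS-box family that acts in muscle and nerve cells and, in blood, in lymphoid and myeloid progenitors. Igf1r encodes the receptor tyrosine kinase for insulin-like growth factor 1, which signals growth and survival through phosphoinositide 3-kinase and Akt.

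The sequences of miR-223 are shown first because the seed decides which messenger RNAs can pair with it. They were taken from RefSeq (GRCm38.p6), where the hairpin lies at chrX:96242817-96242926 on the + strand. In both mature arms the capitals mark the seed, bases 2 to 8 from the 5' end. In the hairpin the capitals mark the 3p arm.
mmu-miR-223-3p: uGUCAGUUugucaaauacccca
mmu-miR-223-5p: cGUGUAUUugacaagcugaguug
Mir223 hairpin: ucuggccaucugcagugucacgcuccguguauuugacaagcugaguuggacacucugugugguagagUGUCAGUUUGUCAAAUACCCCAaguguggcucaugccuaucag
No other of the 1738 mature mouse miRNAs listed had the seed GUCAGUU of the 3p arm, nor that of the 5p arm, so no miRNA in that table shares its full 7-base seed with the one lost in the null cells. A fully paired site for the 3p seed reads AACUGAC in the messenger RNA. Sites in the Mef2c and Igf1r transcripts were not analysed here.

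Values are log2 probe set signals, so a step of 1 is a doubling. A value of 5.51, the median of the means of the 45037 probe sets that are not controls, served as the filter: the 22519 probe sets with a mean at or above it were tested. Of the members, 4 of the 5 Mef2c probe sets and the Igf1r probe set passed. The fifth, 1445420_AT, had a mean of 5.35 over all arrays and did not. Its changes are given from the fit of all 45037 probe sets. A change was called at an adjusted p below 0.05 in limma's moderated test (Benjamini-Hochberg over all probe sets tested). With 2 arrays against 2 an exact permutation test cannot give a p below 0.333, so each call rests on the spread that limma shares between groups and probe sets.

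**Figure D1:**
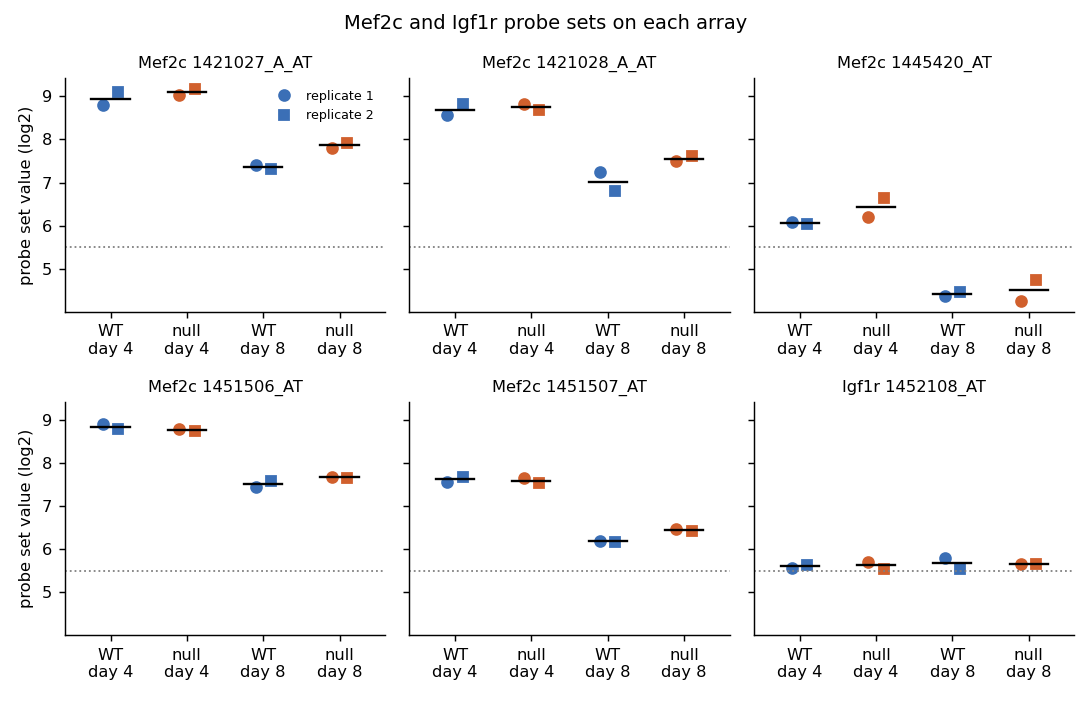
Log2 signal of each member probe set on each of the 8 arrays, by genotype (blue wild type, orange null) and day. Circles are replicate 1, squares replicate 2, black lines group means of 2 arrays, and the dotted line is the filter value of 5.51. All 5 Mef2c panels step down from day 4 to day 8, while the Igf1r panel stays between 5.54 and 5.79.

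Mef2c fell during maturation in both genotypes. Its wild-type day 4 means lay above 57.1% (1445420_AT) to 83.6% (1421027_A_AT) of the probe sets that are not controls. In wild-type cells all 4 tested Mef2c probe sets fell, by 2.52-fold to 3.18-fold, and in null cells all 4 fell by 2.14-fold to 2.36-fold. At 1421027_A_AT, the Mef2c probe set with the highest mean, the wild-type arrays read 8.80 and 9.10 at day 4 and 7.42 and 7.32 at day 8. The null arrays read 9.03 and 9.17 at day 4 and 7.81 and 7.91 at day 8. Every day 8 array was thus below every day 4 array, in either genotype. The wild-type mean went from 8.95 ± 0.21 to 7.37 ± 0.07 (SD, n = 2; log2 change -1.59, SE 0.11, 95% interval -1.83 to -1.34, adjusted p = 1.8e-07). The null mean went from 9.10 ± 0.10 to 7.86 ± 0.07 (log2 change -1.24, SE 0.11, 95% interval -1.49 to -0.99, adjusted p = 1.3e-06).

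The other Mef2c probe sets moved the same way. At 1421028_A_AT the wild-type arrays read 8.57 and 8.82 at day 4 and 7.24 and 6.81 at day 8, a log2 change of -1.67 (SE 0.14, adjusted p = 9.3e-07). Its null arrays read 8.83 and 8.68 at day 4 and 7.49 and 7.61 at day 8, a log2 change of -1.20 (SE 0.14, adjusted p = 1.5e-05). The day 4 arrays of both genotypes overlapped each other, and all lay above the day 8 arrays. At 1451506_AT the wild-type arrays went from 8.91 and 8.78 to 7.45 and 7.59 (log2 change -1.33, SE 0.09), and the null arrays from 8.79 and 8.75 to 7.69 and 7.65 (-1.10, SE 0.09). At 1451507_AT the wild-type arrays went from 7.56 and 7.69 to 6.20 and 6.17 (-1.44, SE 0.11), and the null arrays from 7.65 and 7.54 to 6.47 and 6.43 (-1.14, SE 0.11). The adjusted p-values of these 4 changes were between 1.8e-07 and 2.2e-06. Neither probe set had overlapping days in either genotype.

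The remaining Mef2c probe set, 1445420_AT, was dim. Its wild-type arrays read 6.09 and 6.05 at day 4 and 4.36 and 4.46 at day 8, and its null arrays 6.20 and 6.64 at day 4 and 4.25 and 4.75 at day 8. The days did not overlap. In the fit of all probe sets it fell by 1.66 on the log2 scale in wild type (SE 0.18, adjusted p = 3.4e-06) and fell by 1.92 in null (SE 0.18, adjusted p = 7.2e-07). In that fit 24.6% of all probe sets were called lower in wild type and 23.5% in null. The day 8 values lay below the filter value, so the size of these falls depends on how the authors corrected background.

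**Figure D2:**
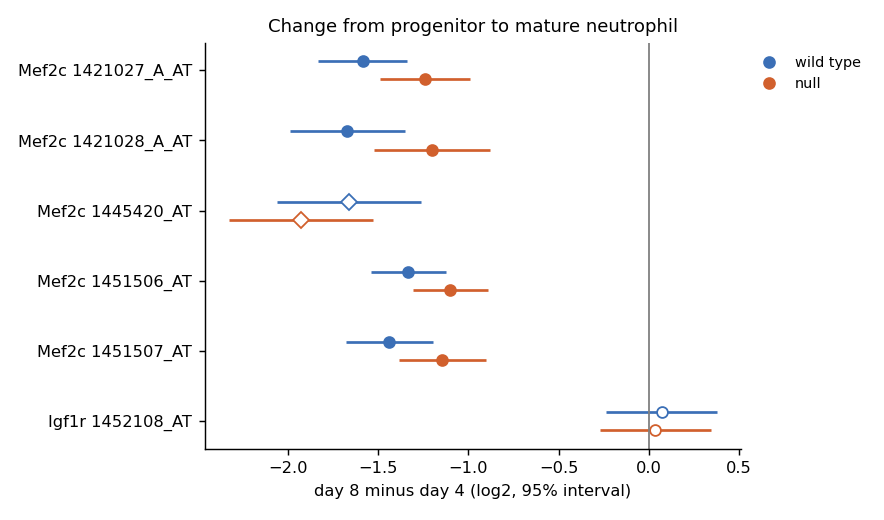
Log2 change from day 4 to day 8 of each member probe set in wild-type (blue) and null (orange) cells, with the model's 95% interval as bars and n = 2 arrays per group. Filled symbols were called, open circles were not, and open diamonds mark 1445420_AT, which was below the filter. All Mef2c points lie between -1.92 and -1.10, while those of Igf1r are 0.07 and 0.03.

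Most tested probe sets changed between the days, 17374 of 22519 in wild type and 17085 in null, which sets the scale for these falls. Of the probe sets tested, 41.7% were called lower at day 8 in wild type and 39.9% in null. The arrays of day 8 were all below those of day 4 in 46.2% of the tested probe sets in wild type and in 45.3% in null. The median change over the 5 Mef2c probe sets was -1.59 in wild type and -1.20 in null, where all tested probe sets had medians of -0.04 and 0.00. Only 11.0% of the tested probe sets changed further downwards than 1421027_A_AT in wild type, and 15.8% in null. A scaling to the spiked-in hybridization controls moved the median of all tested probe sets to -0.21 in wild type and -0.35 in null. Under it 36.1% of the calls in wild type were higher at day 8 and 29.9% in null, against 46.0% and 47.4% as deposited. 1421027_A_AT then changed by -1.75 and -1.59, again far below that median. In a sorted bulk sample a smaller share of Mef2c-expressing cells cannot be told apart from less Mef2c RNA per cell. Beta-actin signal at its 3' over its 5' control probe set, a sign of RNA integrity, also moved between the days, from 0.36 to 0.44 on the day 4 arrays to 0.10 to 0.17 on the day 8 arrays (log2 difference), while for Gapdh it lay between -0.08 and 0.05 throughout. The part of that difference in the Mef2c falls was not tested.

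Igf1r showed no change of a size that these arrays could resolve. Its probe set 1452108_AT read 5.57 and 5.63 on the wild-type day 4 arrays, 5.71 and 5.54 on the null day 4 arrays, 5.79 and 5.56 on the wild-type day 8 arrays and 5.66 and 5.67 on the null day 8 arrays. The groups overlapped in the order of their means, and all 4 means were between 5.60 and 5.67. Day 8 differed from day 4 by 0.07 on the log2 scale in wild type (SE 0.14, 95% interval -0.24 to 0.38, adjusted p = 0.65) and by 0.03 in null (SE 0.14, 95% interval -0.27 to 0.34, adjusted p = 0.83). These small differences turned negative under cyclic loess (-0.085 in wild type and -0.082 in null) and under scaling to the hybridization controls (-0.10 in wild type and -0.32 in null), without a call. The signal was close to the filter value of 5.51, where background can mask a change in the transcript.

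The genotypes were then compared within each day, to ask whether loss of miR-223 raised these candidate targets. In mature neutrophils Mef2c was higher in null cells at 1 of its 4 tested probe sets, 1421027_A_AT, by 1.41-fold, and at the other 3 the null mean was 1.11-fold to 1.44-fold that of wild type without a call. By comparison 4.09% of all tested probe sets were called higher in null cells at day 8. As given above, the null day 8 arrays of 1421027_A_AT read 7.81 and 7.91, above both wild-type values of 7.42 and 7.32 (7.86 ± 0.07 against 7.37 ± 0.07, SD, n = 2). The log2 difference was 0.50 (SE 0.11, 95% interval 0.25 to 0.74, adjusted p = 0.030). It was larger than that of 97.2% of all tested probe sets.

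That call was a close one. It was lost without any 1 of the 4 day 8 arrays: without wild-type replicate 1 (log2 difference 0.55, adjusted p = 0.081), without wild-type replicate 2 (0.45, adjusted p = 0.18), without null replicate 1 (0.54, adjusted p = 0.11) and without null replicate 2 (0.45, adjusted p = 0.16). Leaving out either null array of day 4, replicate 1 or 2, also ended it (0.50, adjusted p = 0.051 each), although these enter only through the shared spread. Scaling to the hybridization controls gave 0.40 (adjusted p = 0.12) and a fit without the intensity trend 0.50 (adjusted p = 0.062). Alternatives that change only the filter, the floor, the model or a day 4 array leave the difference at 0.50 by construction. Leaving out 1 day 8 array could not turn its sign, since both null arrays lay above both wild-type arrays. Quantile normalization gave 0.45, scaling to the same median 0.50 and cyclic loess 0.47, all positive like the 0.40 above. The call held without either wild-type array of day 4, which also enters only through the shared spread. Where no single array was left out, limma's adjusted p ran from 0.021 to 0.12.

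The second Mef2c probe set of that kind, 1421028_A_AT, had the larger difference and the larger spread. Identifiers ending in _A_AT mark probe sets that match more than 1 transcript of a gene. Its null day 8 arrays read 7.49 and 7.61 against 7.24 and 6.81 in wild type. Wild-type replicate 2 was the low one. The null mean was 1.44-fold the wild-type mean (log2 difference 0.53, SE 0.14, 95% interval 0.21 to 0.85, adjusted p = 0.063), which missed the threshold. It was called without wild-type day 8 replicate 1 (0.74, adjusted p = 0.027) and without wild-type day 4 replicate 1 (0.53, adjusted p = 0.0499), and without wild-type day 8 replicate 2 the difference was 0.31 (adjusted p = 0.33).

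Both other tested Mef2c probe sets differed less. At 1451507_AT the null day 8 arrays read 6.47 and 6.43 against 6.20 and 6.17 (log2 difference 0.27, SE 0.11, 95% interval 0.03 to 0.51, adjusted p = 0.20). At 1451506_AT they read 7.69 and 7.65 against 7.45 and 7.59 (log2 difference 0.15, SE 0.09, 95% interval -0.05 to 0.36, adjusted p = 0.41). The dim 1445420_AT overlapped between the genotypes (log2 difference 0.09, SE 0.18). In 4 of the 5 Mef2c probe sets both null arrays thus lay above both wild-type arrays at day 8, which also held for 30.4% of all tested probe sets. All 5 differences were positive, as were 54.9% of all tested. Their median was 0.27, against 0.02 over all tested probe sets and 0.51 in absolute size over those called. The 5 probe sets read the same RNA samples and are not replicates. Whether the null difference itself varied between Mef2c probe sets was not tested.

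Igf1r was not called between the genotypes. At day 8 the null mean of 1452108_AT was 5.66 ± 0.01 and the wild-type mean 5.67 ± 0.17 (SD, n = 2; log2 difference -0.01, SE 0.14, 95% interval -0.32 to 0.29, adjusted p = 0.98). The interval allows a rise of up to 1.23-fold in null cells. The difference turned to 0.01 under cyclic loess and to 0.11 without wild-type day 8 replicate 1, neither of them called.

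**Figure D3:**
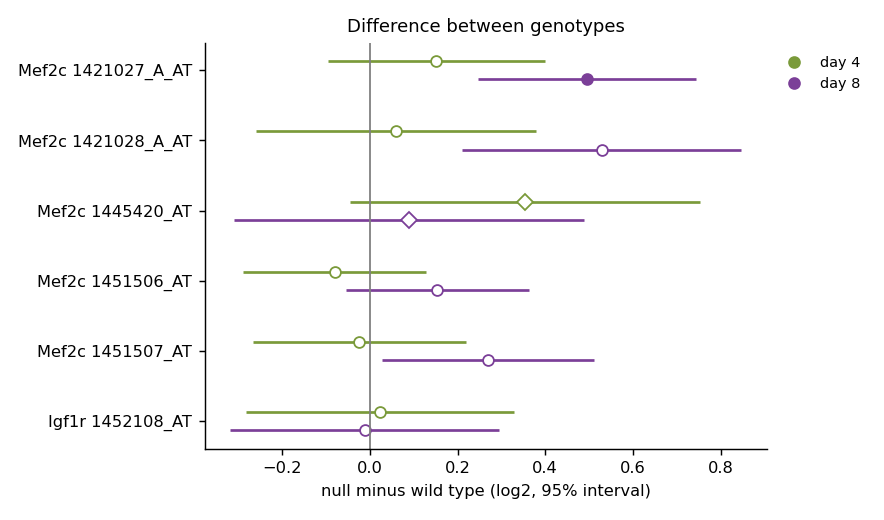
Log2 difference between null and wild-type cells at day 4 (green) and day 8 (purple) for each member probe set, with the model's 95% interval as bars and n = 2 arrays per group. The filled symbol, 1421027_A_AT at day 8 with 0.50, was called, open circles were not, and open diamonds mark 1445420_AT, which was below the filter. The day 8 points of Mef2c lie between 0.09 and 0.53, and the Igf1r points at 0.02 and -0.01.

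In progenitors none of the members was called between the genotypes in limma, against 2.72% of all tested probe sets in either direction. Of the members tested, 0 had an unadjusted p below 0.05 at day 4 (the lowest was 0.20), against 18% of all tested. The null arrays of 1421027_A_AT, 9.03 and 9.17, and the wild-type arrays, 8.80 and 9.10, overlapped (log2 difference 0.15, SE 0.11, 95% interval -0.10 to 0.40, adjusted p = 0.53). At 1421028_A_AT the difference was 0.06 (SE 0.14, adjusted p = 0.88), at 1451506_AT -0.08 (SE 0.09, adjusted p = 0.72) and at 1451507_AT -0.02 (SE 0.11, adjusted p = 0.94). The null arrays of 1445420_AT, 6.20 and 6.64, lay above the wild-type arrays, 6.09 and 6.05, by a mean of 0.35 (SE 0.18, adjusted p = 0.50 in the fit of all probe sets). It was the only Mef2c probe set whose genotypes were without overlap at day 4, where the null arrays were all above in 21.1% of all tested probe sets. The Igf1r probe set differed by 0.02 (SE 0.14, 95% interval -0.28 to 0.33, adjusted p = 0.96). The median over the 5 Mef2c probe sets was 0.06, against -0.01 over all tested.

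The levels of the 4 groups can be put in order. For all 5 Mef2c probe sets both day 4 groups were highest, followed by null day 8 and then wild type day 8. The day 4 genotypes overlapped in the 4 tested probe sets and had no common order, since the null mean was the higher in 1421027_A_AT and 1421028_A_AT and the lower in 1451506_AT and 1451507_AT. Averaged over the 4 tested probe sets, Mef2c read 8.53 ± 0.10 in wild-type and 8.56 ± 0.03 in null progenitors, and 7.02 ± 0.08 in wild-type and 7.38 ± 0.03 in null neutrophils (SD, n = 2). For that average the fall was 2.84-fold in wild type and 2.25-fold in null. Averaged over all 5, with the dim 1445420_AT included, it was 2.90-fold and 2.50-fold. Over the 8 arrays the 5 Mef2c probe sets correlated pairwise at r = 0.934 to 0.990 (10 pairs), a description that mainly reflects the step between the days on the same arrays. For Igf1r all 4 groups overlapped with their neighbour in the order of means.

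Whether the genotype difference depended on the stage was tested as the interaction, the null difference at day 8 minus that at day 4. It is the same number as the difference between the falls of Mef2c in the genotypes. The interaction was 0.34 at 1421027_A_AT (SE 0.16, 95% interval -0.01 to 0.69, adjusted p = 0.31). It was 0.47 at 1421028_A_AT (SE 0.20, 95% interval 0.02 to 0.92, adjusted p = 0.28). It was 0.23 at 1451506_AT (adjusted p = 0.42), 0.29 at 1451507_AT (adjusted p = 0.38), and -0.27 at 1445420_AT (SE 0.26, adjusted p = 0.77 in the fit of all probe sets). None of the members was called in limma, against 1.66% of all tested probe sets, and 1 tested member had an unadjusted p below 0.05 (1421028_A_AT, 0.043), as had 16.5% of all tested. The 4 tested Mef2c probe sets fell less in null than in wild-type cells and 1445420_AT fell more, and none of these 5 differences was called. Igf1r had an interaction of -0.03 (SE 0.20, 95% interval -0.47 to 0.40, adjusted p = 0.96).

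**Figure D4:**
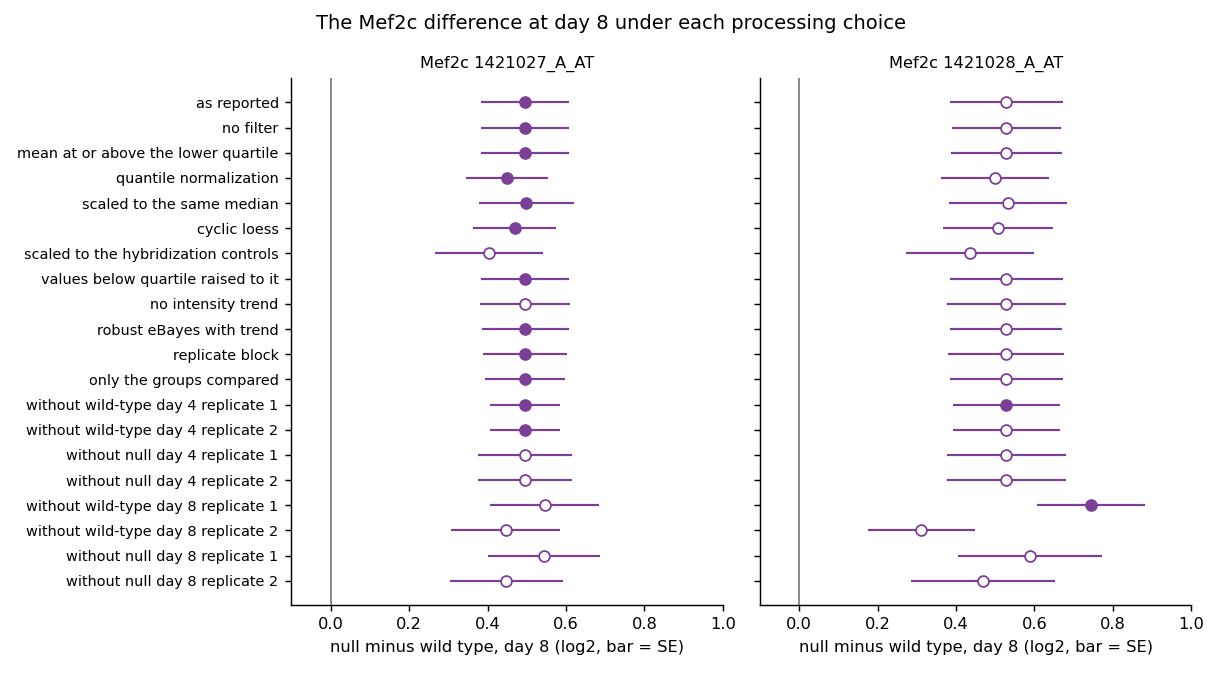
Null minus wild type at day 8 (log2) for Mef2c probe sets 1421027_A_AT and 1421028_A_AT as reported and under each of 19 alternatives, with 1 SE as bars. Filled symbols had an adjusted p below 0.05. The values of 1421027_A_AT stay between 0.40 and 0.55, while those of 1421028_A_AT run from 0.31 to 0.74.

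The regions at the start sites are shown because the Mef2c probe sets fell together, while no change of Igf1r was called. RefSeq (GRCm38.p6) lists 3 start windows of 300 bases for Mef2c and 1 for Igf1r among 32851 in all, and the array values do not tell which Mef2c start was in use. The first Mef2c window and the Igf1r window are printed, on the + strand, with the dinucleotide CG in capitals.
Mef2c chr13:83503784-83504083: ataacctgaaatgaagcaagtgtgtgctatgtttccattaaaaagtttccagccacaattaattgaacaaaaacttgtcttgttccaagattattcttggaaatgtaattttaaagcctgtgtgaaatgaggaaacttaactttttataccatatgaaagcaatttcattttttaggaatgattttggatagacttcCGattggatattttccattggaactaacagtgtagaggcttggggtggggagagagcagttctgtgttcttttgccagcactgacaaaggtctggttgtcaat
Igf1r chr7:67952007-67952306: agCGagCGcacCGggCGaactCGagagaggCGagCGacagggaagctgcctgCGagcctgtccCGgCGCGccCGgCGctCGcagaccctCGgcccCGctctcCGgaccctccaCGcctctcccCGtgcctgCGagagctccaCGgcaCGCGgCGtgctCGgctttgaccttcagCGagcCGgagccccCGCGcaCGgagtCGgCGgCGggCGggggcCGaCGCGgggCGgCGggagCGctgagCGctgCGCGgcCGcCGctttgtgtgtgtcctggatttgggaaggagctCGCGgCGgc
This Mef2c window held 1 CG and 35.7% G and C, and the Igf1r window 48 CG and 76.0%. The other two Mef2c windows, chr13:83523406-83523705 and chr13:83573357-83573656, held 10 and 4 CG. The median over all windows was 7 CG. Of all windows, 98.8% had fewer CG than that of Igf1r. For the 3 Mef2c windows, in order of position, the share with fewer CG was 5.43%, 56.5% and 31.4%, so the printed one, chosen by position, is the poorest in CG of the 3. These are descriptions of sequence and bear no test against the expression values.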

How the data were processed

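Messenger RNA was measured on 8 Affymetrix arrays. The values deposited by the authors were read as log2 from their range. The submitters' processing notes name GCOS, the scanner software. How probes were summarized, corrected for background and normalized is not given in the sources used here. Between arrays, the highest and lowest medians differed by 0.052, and the table was taken as normalized. The unknown background correction bears most on the dim 1445420_AT and 1452108_AT.

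The table pairs no probe set with a gene and 0 identifiers were found in the RefSeq gene table, so the genes of the 6 members rest on that list. Lists of MEF2 and insulin-like growth factor pathway genes, other miR-223 targets and cell type markers could not be tested for the same reason, and neither the loss of miR-223 nor the sorted cell types were checked on these arrays. The members and lists were chosen with earlier results of these data known.

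One model of 4 group means was fitted to the 22519 probe sets that passed the filter with limma 3.58.1 (lmFit and trended eBayes) under R 4.3.3, with 4 residual degrees of freedom, for 5 comparisons, all two-sided. The fit was tested on simulated data. Replicate numbers were not used as a block. Named were the 6 members, and the probe sets nearest in profile to the Mef2c probe set of highest mean and to the Igf1r probe set. The number of arrays limits the precision: the median SE over tested probe sets was 0.115 between 2 groups and 0.163 for the interaction. Alternatives were the filter, normalization, background floor, trend, block, groups in the fit, and leaving out each array.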

Additional observations from a re-analysis of the deposited data

How the results depend on the processing

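The falls of the 4 tested Mef2c probe sets from day 4 to day 8 were called in all 19 alternatives in both genotypes, with log2 changes of -1.89 to -1.12 (wild type) and -1.59 to -0.95 (null). Alternatives other than the filter give no value for 1445420_AT, which was below it. At day 8 the call of 1421027_A_AT was lost under scaling to the hybridization controls (0.40) and without the intensity trend (0.50). With 1 array left out the difference was 0.45 to 0.55. The call then ended for each day 8 array and each null day 4 array, but not for the wild-type day 4 arrays. Leaving out 1 array leaves its group with a lone array, assumed to vary like the other groups. For 1421028_A_AT leaving out 1 array gave 0.31 to 0.74 at day 8 and -0.063 to 0.18 at day 4. Changes of direction were otherwise limited to small differences without a call: at day 4, 1451506_AT gave 0.012 and 1451507_AT 0.068 under scaling to the hybridization controls, 1451507_AT gave 0.018 after quantile normalization and -0.088 to 0.041 with 1 array left out, and 1452108_AT (Igf1r) -0.063 to 0.11 with 1 array left out. At day 8 Igf1r gave 0.011 under cyclic loess and -0.13 to 0.11 with 1 array left out. Its change over maturation under cyclic loess was -0.085 in wild type and -0.082 in null, -0.10 and -0.32 when scaled to the hybridization controls, and with 1 array left out -0.048 to 0.19 (wild type) and -0.051 to 0.12 (null). Its interaction was 0.0028 under cyclic loess and -0.15 to 0.083 with 1 array left out.

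Counts over all tested probe sets moved more. At day 4 the 613 calls between genotypes became 222 without the trend, 98 with only the groups compared, and 129 to 1674 with 1 array left out. At day 8 the 1195 calls became 694 when scaled to the hybridization controls (47.0% higher in null, against 77.1% as deposited), 747 without the trend and 355 to 1691 with 1 array left out. The 373 calls of the interaction became 209 after quantile normalization, 198 under cyclic loess, 124 when scaled to the hybridization controls, 129 without the trend and 48 to 893 with 1 array left out. The cause of these moves was not tested. A replicate block gave 630 calls at day 4, 1225 at day 8 and 319 in the interaction. It gave an adjusted p of 0.028 in limma for 1421027_A_AT at day 8 and changed no call of a member. The differences between replicate 1 and 2 correlated at -0.05 to 0.22 between groups. A low correlation does not tell whether equal replicate numbers mark a shared animal or culture, and the labels do not say.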

Other observations

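By Euclidean distance between centred profiles over the 8 arrays, the tested probe set most like Mef2c 1421027_A_AT was 1416418_AT (distance 0.14, Pearson's r 0.998). Its means were 9.04 in wild-type and 9.17 in null progenitors and 7.46 in wild-type and 8.01 in null neutrophils. The next was 1460389_AT (distance 0.18, r 0.996), with means of 9.41, 9.68, 7.86 and 8.37 in the same order. Both were picked for their small distance to 1421027_A_AT. Their fall over maturation and higher null than wild-type neutrophil means follow from that choice. For Igf1r 1452108_AT, whose 8 values had an SD of 0.085, the nearest were 1434483_AT (distance 0.09, r 0.927) and 1423438_AT (distance 0.09, r 0.914), equally level over the 4 groups. The table does not pair these identifiers with genes, and the likeness is a description over 8 arrays in which the day makes most of the Mef2c pattern.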
